A study of Mus musculus with 6 samples.

Results

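The genes described here are 39 effector genes that type I interferon switches on, measured in bone marrow stem and progenitor cells of mice with and without the microRNA miR-21. They were chosen by name, and a gene counted as measured where the array annotation named a probe set (the group of probes read as 1 transcript) for that gene alone. This held for 38 of the 39, out of 30627 genes named in this way on the array. Ifi44 had no probe set of its own and has no value here. Of the 38, 36 had a mean over all arrays above 1.92 (log2), the median of the 65956 probe sets, and in each of these 36 the mean of either group alone lay above it too. Ifit3 and Mx1 lay under that median and were treated as dim.

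Cells that are Lineage-, c-Kit+ and Sca1+ (LSK cells), the marrow fraction enriched for blood stem cells, were sorted from miR-21flox/flox:Mx1-Cre+ mice (the knockout, 3 samples) and from miR-21flox/flox:Mx1-Cre- littermates (the control, 3 samples), each on 1 Affymetrix array. Both groups carried the floxed miR-21 alleles, and both received 250 µg of pIpC at each of 7 injections given every other day, begun at 4 to 6 weeks of age. The cells were taken 4 weeks after the injections. The knockout mice alone carried Cre, driven by the promoter of Mx1, itself an interferon-stimulated gene, so that Cre and the loss of miR-21 cannot be told apart, and Mx1-Cre deletes in other interferon-responsive tissues besides blood. The labels call the samples of a group biological replicates. The sources used here give neither sex, strain nor the number of mice behind each sample.

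Type I interferons bind the receptor of Ifnar1 and Ifnar2 on the cell surface. The receptor's kinases then activate Stat2, which enters the nucleus with Irf9 in a complex that binds the interferon-stimulated response element in the promoters of many genes. The effectors studied here are among those genes: they bind or degrade viral RNA, block entry and release of virus particles, attach the ubiquitin-like protein Isg15 to other proteins, or damp the signal again. The agent pIpC imitates viral RNA and raises interferon, and blood stem cells are known to leave dormancy for a time under interferon.

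Among the effector genes more fell than rose in the knockout, and all changes were small. With limma and Benjamini-Hochberg adjustment over the 19010 genes tested, at an adjusted p under 0.05, 12 of the 36 tested members fell, 2 rose and 22 did not pass. The 12 that fell were Ifit1, Oas2, Oas3, Usp18, Herc6, Rsad2, Isg20, Ddx60, Helz2, Trim30a, Epsti1 and Rnf213, and the 2 that rose were Xaf1 and Ifitm1. Over all genes tested, 31.1% passed, 19.1% higher and 12.0% lower. Among the members 38.9% passed, 5.56% higher and 33.3% lower, so that the share that passed was near that of all genes while the directions were divided the other way round. No set test was made of this division.

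The median change of the members, knockout minus control, was -0.11 on the log2 scale, against 0.07 over all genes tested. Their quartiles were -0.30 and 0.07, against -0.07 and 0.18. The largest change in size among the members was 0.54, a fold of 1.46, so that 0 of 36 passed with a fold of at least 1.5, which 4.10% of all genes did; Ifit1 passed that fold when knockout replicate 2 or control replicate 2 was left out (1 of 36 in each case). All 3 knockout arrays lay below all 3 control arrays for 18 of the 36 members and above them for 5, whereas over all genes 17.0% lay below and 30.9% above, 47.9% in all. When each array was centred on the median of the genes kept, 12 members fell and 2 rose, while over all genes the split went from 3630 higher and 2277 lower to 2750 higher and 2719 lower. Without knockout replicate 3 the number of genes higher in the knockout was 2322.

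**Figure D1:**
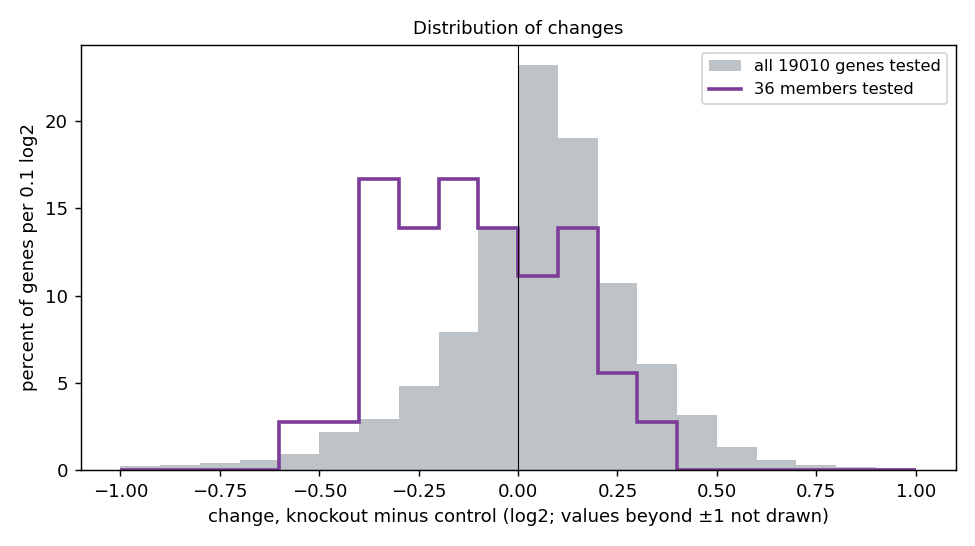
Histogram of the change between knockout and control (horizontal axis, log2) as a percent of genes in each interval of 0.1 (vertical axis), for all 19010 genes tested (grey) and the 36 members tested (purple line). The members lie further to the left, with a median of -0.11 against 0.07, and none lies beyond 0.6 in size.

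The label of the sorted cells was checked against marker genes. Kit, the c-Kit gene, had a mean log2 value of 8.15 in the knockout and 8.61 in control, and Cd34 8.89 and 9.06, while the Sca-1 gene Ly6a had no probe set of its own. Of the markers that a lineage-negative sort removes, Cd3d, Cd3g and the mature B cell gene Ms4a1 lay under the median of all probe sets and Ly6g was at 2.61 in the knockout and 2.23 in control. Other B cell genes were measured well above it in both groups, Cd79b at 5.30 and 5.05, Vpreb1 at 4.70 and 4.63, Cd79a at 3.73 and 3.69 and Pax5 at 3.30 and 3.31. Of the 5 T cell markers with a probe set, 3 lay above that median. Several marker lists moved with the genotype. All 11 neutrophil lineage markers tested rose (median 1.53), as did 5 of 6 monocyte and macrophage markers (median 0.91), 15 of 19 genes of mitosis (median 0.39, none fell), while 6 of 8 LSK markers fell and 1, Slamf1, rose (median -0.46). The mean log2 level of the neutrophil list was 6.92 to 7.06 on the knockout arrays and 5.32 to 5.58 on the control arrays. For the monocyte list it was 4.42 to 4.48 against 3.72 to 3.78, and for the LSK list 6.11 to 6.19 against 6.49 to 6.56. In RNA of sorted cells, fewer cells of a type and less RNA per cell cannot be told apart. The part of these shifts in the results on the interferon genes was not tested. Plasmacytoid dendritic cells, known as strong producers of interferon, were looked for as well. Of their 9 markers 7 were tested, 2 rose (Pld4 and Cox6a2), 1 fell (Tcf4) and the median was 0.05. Siglech, which defines them, was at 2.43 in the knockout and 2.38 in control, and Ccr9 and Klk1 lay under the median of all probe sets. Higher levels were read for Tcf4 (5.86 and 6.26), Pld4 (5.52 and 5.10), Cox6a2 (3.92 and 3.70) and Ly6d (3.62 and 3.59). Markers of B cells (1 rose and 1 fell of 5), T cells (0 of 3 passed), NK cells (1 rose and 1 fell of 2) and erythroblasts (1 of 3 rose) had medians of 0.03, 0.09, 0.04 and 0.08.

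The promoters of the members were searched for the elements named for interferon. RefSeq windows (GRCm38.p6) from 250 bases before to 50 bases after the start were found for 31 of the 39 members. They were searched on both strands for GAAA, any 2 bases and GAAA again, the core of the interferon-stimulated response element, and cores may overlap. It was present for 11 of the 31 members and for 3.99% of all 27025 genes with a window. By result, 5 of the 10 members that fell and had a window held a core, 5 of the 17 that did not pass, and 0 of the 2 that rose; the dim Ifit3 was the other. The gamma-activated site TTCNNNGAA, the element of interferon gamma, was present for 6 of the 31 members and for 9.55% of all genes. A match is a description of letters and not a binding site.

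The 5 members that fell and held a core are shown first, from up to 30 bases before the core to 30 after or to the last base before the start, 5′ to 3′ on the gene's strand, with the core in capitals (TTTC, 2 bases and TTTC where it lies on the opposite strand).
Ifit1 (chr19:34640755-34640843, + strand): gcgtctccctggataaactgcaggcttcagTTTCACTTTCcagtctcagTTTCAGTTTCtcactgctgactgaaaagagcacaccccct
Rsad2 (chr12:26456533-26456602, - strand): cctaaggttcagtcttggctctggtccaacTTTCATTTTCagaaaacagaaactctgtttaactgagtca
Oas3 (chr5:120777695-120777764, - strand): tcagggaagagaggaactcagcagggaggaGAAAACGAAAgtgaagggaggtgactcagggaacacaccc
Ddx60 (chr8:61928004-61928086, + strand): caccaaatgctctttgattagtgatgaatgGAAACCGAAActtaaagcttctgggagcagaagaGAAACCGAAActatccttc
Trim30a (chr7:104465194-104465259, - strand): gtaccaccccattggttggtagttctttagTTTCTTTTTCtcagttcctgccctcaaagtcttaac
In Ifit1 and Ddx60 the core stood in a pair, while Rsad2, Oas3 and this start of Trim30a held 1 each.

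The next 3 also held cores but did not pass in the comparison. They are shown because the same element stood before genes with the opposite sign of change or none that passed.
Isg15 (chr4:156200845-156200926, - strand): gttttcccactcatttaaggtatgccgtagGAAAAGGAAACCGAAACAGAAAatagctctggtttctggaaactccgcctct
Oas1a (chr5:120907526-120907575, - strand): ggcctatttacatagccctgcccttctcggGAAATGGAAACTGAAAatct
Bst2 (chr8:71537557-71537632, - strand): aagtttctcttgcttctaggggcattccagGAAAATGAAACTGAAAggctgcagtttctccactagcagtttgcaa
In these 3 promoters the cores overlap, 3 of them in Isg15 and 2 each in Oas1a and Bst2, and in Oas1a they end within a few bases of the start. The other members that did not pass and held a core, not shown, were Ifitm2 and Ifitm3. Ifitm2 held 1 core, and Ifitm3 held 2 after the start that do not overlap.

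The IFIT proteins bind foreign RNA that lacks the cap modification of the cell's own messenger RNA and block its translation. Ifit1, in order of replicate, was at 3.10, 3.20 and 2.79 on the knockout arrays and at 3.66, 3.28 and 3.78 on the control arrays. The groups did not overlap, but control replicate 2 lay close to the knockout arrays. The change was -0.54 ± 0.14 (SE from limma, n = 3 per group, adjusted p = 0.0175 in limma), and the call was lost without knockout replicate 3 (-0.42, adjusted p = 0.0559), control replicate 1 (-0.50, 0.0545) or control replicate 3 (-0.44, 0.0649). Its relative Ifit2 was at 4.32 ± 0.12 in the knockout and 4.25 ± 0.15 in control (SD, n = 3 each), with overlapping arrays and a change of 0.07 (adjusted p = 0.609). Ifit3 was dim in both groups, at 1.33 to 1.42 in the knockout and 1.16 to 1.48 in control, although its promoter holds the element.

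The OAS genes encode oligoadenylate synthetases, which sense RNA with paired strands and make the messenger that activates the nuclease RNase L. Oas2 was at 5.32, 5.31 and 5.30 in the knockout and 5.76, 5.72 and 5.60 in control. Every knockout array lay below every control array, and the change was -0.38 ± 0.06 (SE, limma adjusted p = 0.00229). Oas3, its direct neighbour on chromosome 5, was at 5.08, 5.27 and 5.11 in the knockout and 5.54, 5.45 and 5.36 in control. It fell by 0.30 (limma adjusted p = 0.0154), and that call was lost without knockout replicate 1 or 3 (-0.26 and -0.28, adjusted p = 0.0575 and 0.0553). Oas1a, at the far end of the same cluster, was at 6.06, 5.87 and 6.07 in the knockout and 5.89, 5.75 and 5.83 in control. Its groups overlapped by 1 array and the change was 0.18 ± 0.07 (SE, limma adjusted p = 0.0900), of the opposite sign; it passed as higher without knockout replicate 2 (0.24, adjusted p = 0.0327), after a second quantile normalization (0.21, 0.0306) and with array weights (0.22, 0.0307). The difference between Oas1a and Oas2 within each array was larger in the knockout by 0.56, for which the exact permutation test (two-sided) gave p = 0.1, the smallest that 3 arrays against 3 can give (0.14 adjusted over the 7 pairs of related genes compared, which were chosen after their values were seen). Oas1 genes are close copies of each other, so probes of Oas1a may read its relatives. The 2 OAS-like genes Oasl1 and Oasl2 were at -0.12 and -0.11 and did not pass (adjusted p = 0.142 and 0.162).

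Isg15 is a ubiquitin-like protein that is joined to other proteins, Herc6 is the main mouse ligase for it, and Usp18 takes it off again and also blocks the interferon receptor. Usp18 was at 4.51, 4.39 and 4.30 in the knockout and at 4.82, 4.86 and 4.76 in control. All knockout values lay below all control values, with a change of -0.41 ± 0.07 (SE, limma adjusted p = 0.00272). Herc6 likewise had 4.56, 4.43 and 4.66 against 4.87, 5.04 and 4.90, a change of -0.39 ± 0.08 (limma adjusted p = 0.00565). Isg15 itself was low on these arrays, at 2.02, 2.003 and 2.17 in the knockout and 2.28, 2.11 and 2.05 in control. Its groups overlapped, and the change of -0.08 did not pass (adjusted p = 0.466). Neither did Uba7 (-0.01) and Ube2l6 (-0.06), which activate and carry Isg15 and were measured as other genes of the pathway.

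**Figure D2:**
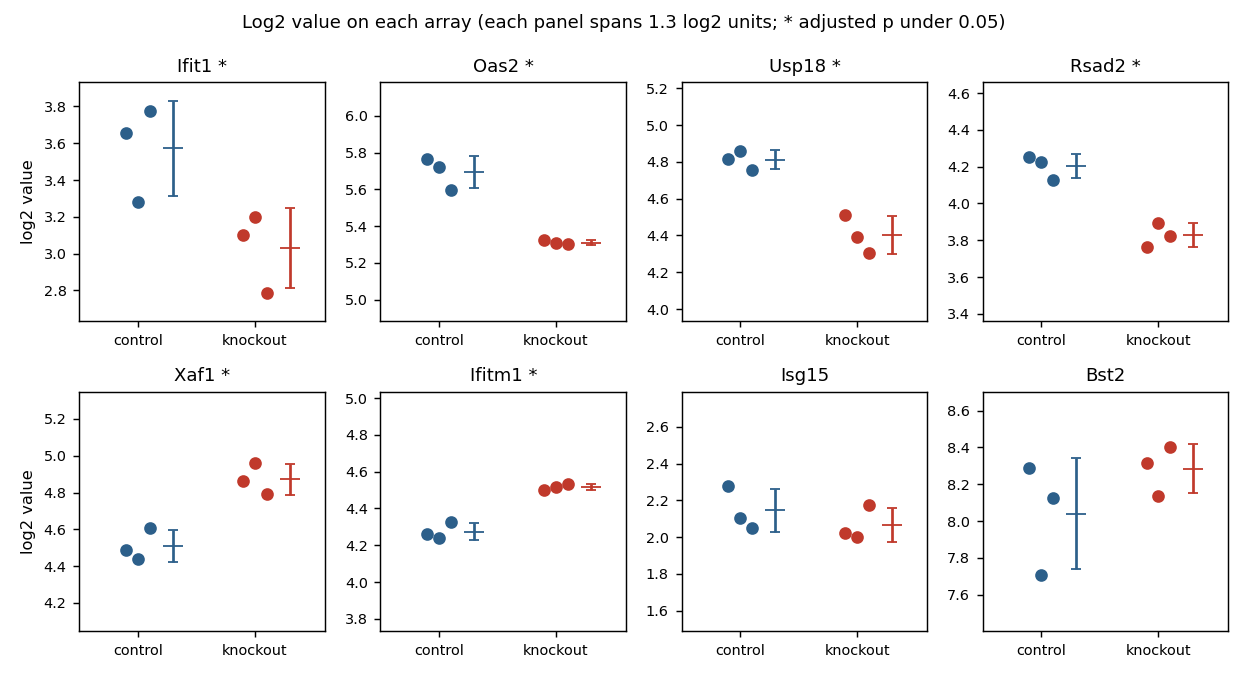
Log2 value (vertical axis, each panel spanning 1.3 log2 units) on each of the 3 control (blue) and 3 knockout (red) arrays for 8 members, with the group mean and SD beside the points. Ifit1, Oas2, Usp18 and Rsad2 lie lower in the knockout without overlap and Xaf1 and Ifitm1 higher, while the groups of Isg15 and Bst2 overlap.

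Enzymes that act on nucleotides and nucleic acids held the largest number of falls of any group of members, 4 of 6 (median change -0.30). Over all genes tested 12.0% fell, and the ISG15 system had the same share of falls as this group, 2 of 3 (median -0.39). Rsad2 encodes viperin, which turns CTP into a chain terminator of viral RNA. It was at 3.76, 3.89 and 3.82 in the knockout and 4.25, 4.23 and 4.13 in control, a change of -0.38 ± 0.06 (SE, limma adjusted p = 0.00273). Helz2, a helicase that acts as a nuclear receptor coactivator, was at 4.55, 4.62 and 4.45 against 4.82, 4.97 and 4.78 and fell by 0.31 (limma adjusted p = 0.0109). Ddx60, a helicase linked to RNA sensing, was at 2.75, 2.69 and 2.94 against 3.02, 3.15 and 3.10 and fell by 0.30 (limma adjusted p = 0.0184). Neither gene had overlapping groups, but the call on Ddx60 did not hold once knockout array 1, knockout array 2, control array 2 or control array 3 was removed (-0.29 to -0.25, adjusted p = 0.0517 to 0.0601). The RNA exonuclease Isg20 was at 4.77, 4.75 and 4.81 against 5.02, 4.89 and 4.96. Its fall of 0.18 (limma adjusted p = 0.0473) lay just inside the threshold and was lost without any 1 of the 6 arrays (adjusted p = 0.0513 to 0.129), and with no filter on dim genes (0.0601), with arrays centred on their median (0.0504), after a second quantile normalization (0.0677) or with every probe set in the fit (0.0734).

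Cmpk2 and Samd9l completed that group and did not pass. Cmpk2, a mitochondrial kinase that supplies CTP, is the direct neighbour of Rsad2 on chromosome 12, with no other protein-coding gene between them. It was at 5.34, 5.42 and 5.49 in the knockout and 5.33, 5.37 and 5.37 in control, a change of 0.06 (adjusted p = 0.459). Within each array the difference between Rsad2 and Cmpk2 was lower in the knockout by 0.44. The exact two-sided permutation test gave p = 0.1 (0.14 adjusted over the 7 pairs). A p of 0.1 is the smallest that 3 arrays against 3 can give, so the test could not pass. The pairs were chosen after their values were seen, and the test adds no support. Samd9l, a growth restraint of blood cells, was at 4.31, 4.19 and 4.32 against 4.42, 4.41 and 4.91. Here 1 control array stood above the other two, the change of -0.31 did not pass (adjusted p = 0.0914), and without control replicate 3 it was -0.14.

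Of 4 genes of proteins that act in membranes, 1 rose and none fell, where 19.1% of all genes tested rose and 12.0% fell. The IFITM proteins stop virus from fusing with the membranes of the cell, and Bst2 (tetherin) holds budding virus at the surface; the changes of all 4 were above 0, as were 65.1% of the changes of all genes tested. Ifitm1 was at 4.50, 4.52 and 4.53 in the knockout and 4.26, 4.24 and 4.32 in control. The knockout arrays lay close together above all control arrays, and the change was 0.24 ± 0.06 (SE, limma adjusted p = 0.0114). Ifitm3 had 7.39 to 7.46 in the knockout and 7.22 to 7.35 in control, without overlap, and a change of 0.15 (adjusted p = 0.0849). Ifitm2 was at 0.08 (adjusted p = 0.365). These 3 genes lie next to each other on chromosome 7 and are close relatives, so their probes may read more than 1 of them. Bst2 was at 8.31, 8.14 and 8.40 in the knockout and 8.29, 7.71 and 8.13 in control. With control replicate 2 below all other arrays, its change of 0.24 ± 0.14 (SE) did not pass (limma adjusted p = 0.203) and was 0.08 without that array. Neutrophil and monocyte markers rose and most LSK markers fell on the same arrays, as given above. A link of these shifts to the changes of any member was not tested.

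The MX proteins are GTPases that trap viral components, and the promoter of Mx1 drives the Cre of this model. Mx1 was dim in both groups 4 weeks after pIpC, at 1.86, 1.83 and 1.80 in the knockout and 1.83, 1.82 and 1.87 in control. It was left out of the comparison by the filter on dim genes, and in a fit without that filter its change was -0.02 (limma adjusted p = 0.873). Mx2 was at 2.77, 2.62 and 2.75 against 2.89, 2.78 and 2.81. The knockout arrays lay below the control arrays, but the change of -0.11 did not pass (adjusted p = 0.226).

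Parp9 and Parp14 bind or attach ADP-ribose, and Dtx3l is the ubiquitin ligase that works with Parp9 and is its direct neighbour. Of these 3 genes 0 passed, where 31.1% of all genes tested did. Their changes were -0.13, -0.07 and 0.01 (adjusted p = 0.245, 0.311 and 0.877). Among genes of nuclear bodies and the TRIM family 1 of 4 fell, where 12.0% of all genes tested did. That gene was Trim30a, a restraint on Toll-like receptor signalling, at 5.65, 5.53 and 5.65 in the knockout and 5.87, 5.82 and 5.81 in control. The fall of 0.22 (limma adjusted p = 0.0211) was lost without knockout replicate 2 (-0.19, adjusted p = 0.0615), control replicate 1 (-0.21, 0.0583) or control replicate 2 (-0.23, 0.0503). The nuclear body genes Sp100, Sp110 and Pml were at -0.11, -0.06 and -0.02 and did not pass (adjusted p = 0.178, 0.473 and 0.848).

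Of the 8 remaining induced genes tested, 2 fell and 1 rose, where 12.0% of all genes tested fell and 19.1% rose. Xaf1, which opposes the apoptosis inhibitor XIAP, was at 4.86, 4.96 and 4.79 in the knockout and 4.49, 4.44 and 4.61 in control. It had the largest rise among the members, 0.36 ± 0.07 (SE, limma adjusted p = 0.00527). Epsti1, named for its induction in epithelial cells by stroma, was at 4.94, 4.81 and 4.84 against 5.34, 5.12 and 5.19 and fell by 0.36 (limma adjusted p = 0.00643). Rnf213, a very large ubiquitin ligase, was at 6.75, 6.76 and 6.68 against 6.90, 7.09 and 6.87. Its fall of 0.22 (limma adjusted p = 0.0425) was lost when any array but control replicate 3 was left out (adjusted p = 0.0557 to 0.131), with no filter on dim genes (0.0591), after a second quantile normalization (0.0559) and with every probe set in the fit (0.0690). Ifi27 (0.12), Ifi35 (0.12) and the secreted lectin ligand Lgals3bp (0.10) had changes above 0, and Nmi (-0.20) and Rtp4 (-0.03) below, and none of the 5 passed.

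**Figure D3:**
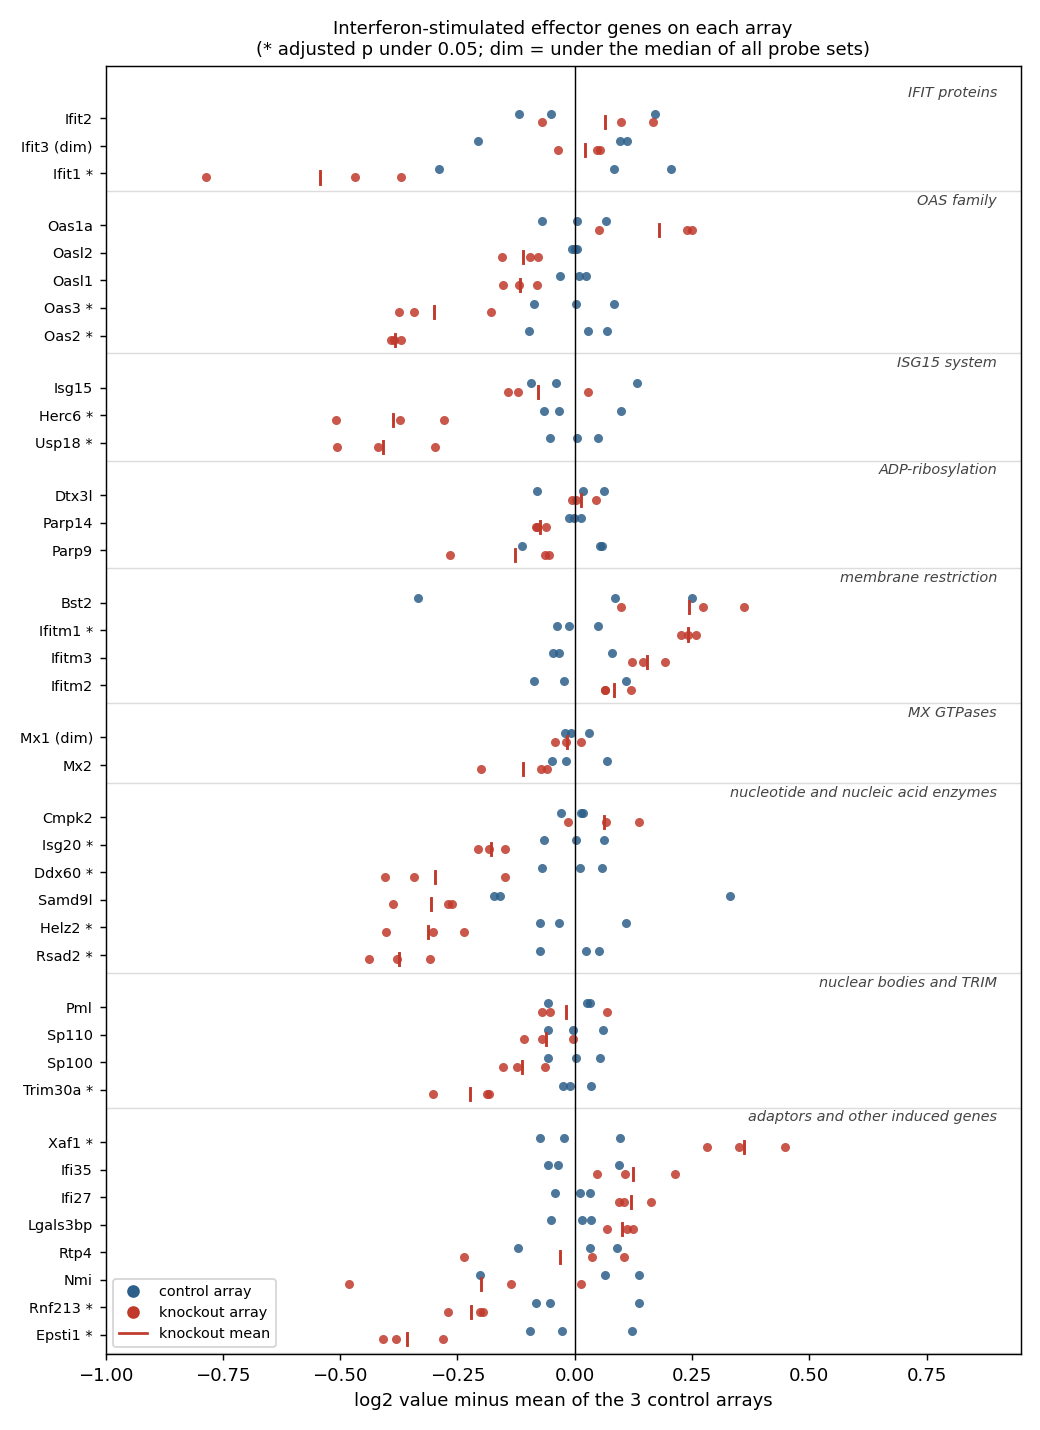
Log2 value minus the mean of the control arrays (horizontal axis) for each of the 38 measured members (rows, grouped by role), with control arrays in blue, knockout arrays in red and the knockout mean as a red bar. The stars mark the 14 members that passed, 12 of them to the left of 0, while the 4 genes of membrane proteins all have knockout means to the right.

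Among other genes of the pathway the shares that rose and fell were near the 19.1% and 12.0% of all genes tested. Of 65 tested in 8 lists, 13 rose (20.0%), 8 fell (12.3%) and 44 did not pass (median 0.01), where 31.1% of all genes passed. The number that rose was 8 without knockout replicate 1, without control replicate 2 and with arrays centred on the median of the genes kept, and the number that fell was 5 without knockout replicate 2 or control replicate 3. In the receptor and its signalling chain Ifnar2 (0.21, adjusted p = 0.0290) and Stat2 (0.33, 0.00587) rose and Jak1 fell by 0.35 (0.00271), by limma as above. Ifnar1 (0.13, adjusted p = 0.172) and Irf9 (-0.13, 0.121) did not pass. Of the 7 interferon regulatory factors, which start or sustain the response, Irf8 (0.70), a factor of monocyte and dendritic cell fate, and Irf3 (0.29) rose, Irf4 (-0.47) and Irf1 (-0.25) fell, and Irf7, which amplifies the response, was at -0.07 (adjusted p = 0.419). Among 15 sensors of nucleic acids and their adaptors, the 3 RNA helicases of 1 family Rigi (-0.49), Ifih1 (-0.26) and Dhx58 (-0.24) fell and the DNA-sensing adaptor Sting1 rose by 0.48.

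Genes of interferon ligands were mostly dim or did not pass. Of 11, 5 lay under the median of all probe sets, among them Ifnb1 and Ifng, 5 did not pass and 1 rose, Ifnl3 (0.30, limma adjusted p = 0.0354). Among 9 inhibitors Pias4 rose by 0.31 and Irf2bp2 fell by 0.22, while Socs1 (0.03) and Socs3 (0.11) did not pass. Of 10 interferon-inducible GTPases, which attack the vacuoles of intracellular parasites, Igtp (0.41) and Iigp1 (0.21) rose and Gbp8 fell by 0.31. Of 10 genes of interferon gamma and antigen presentation 4 rose and 0 fell, namely the immunoproteasome subunits Psmb9 (0.32) and Psmb8 (0.29), the peptide transporter Tap1 (0.25) and Ciita (0.18). The 2 enzymes of Isg15 conjugation did not pass. Of the 21 calls among these pathway genes 10 were lost in at least 1 other setting, those of Ciita, Dhx58, Ifih1, Ifnar2, Ifnl3, Iigp1, Irf1, Irf2bp2, Psmb9 and Tap1 (adjusted p up to 0.131).

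**Figure D4:**
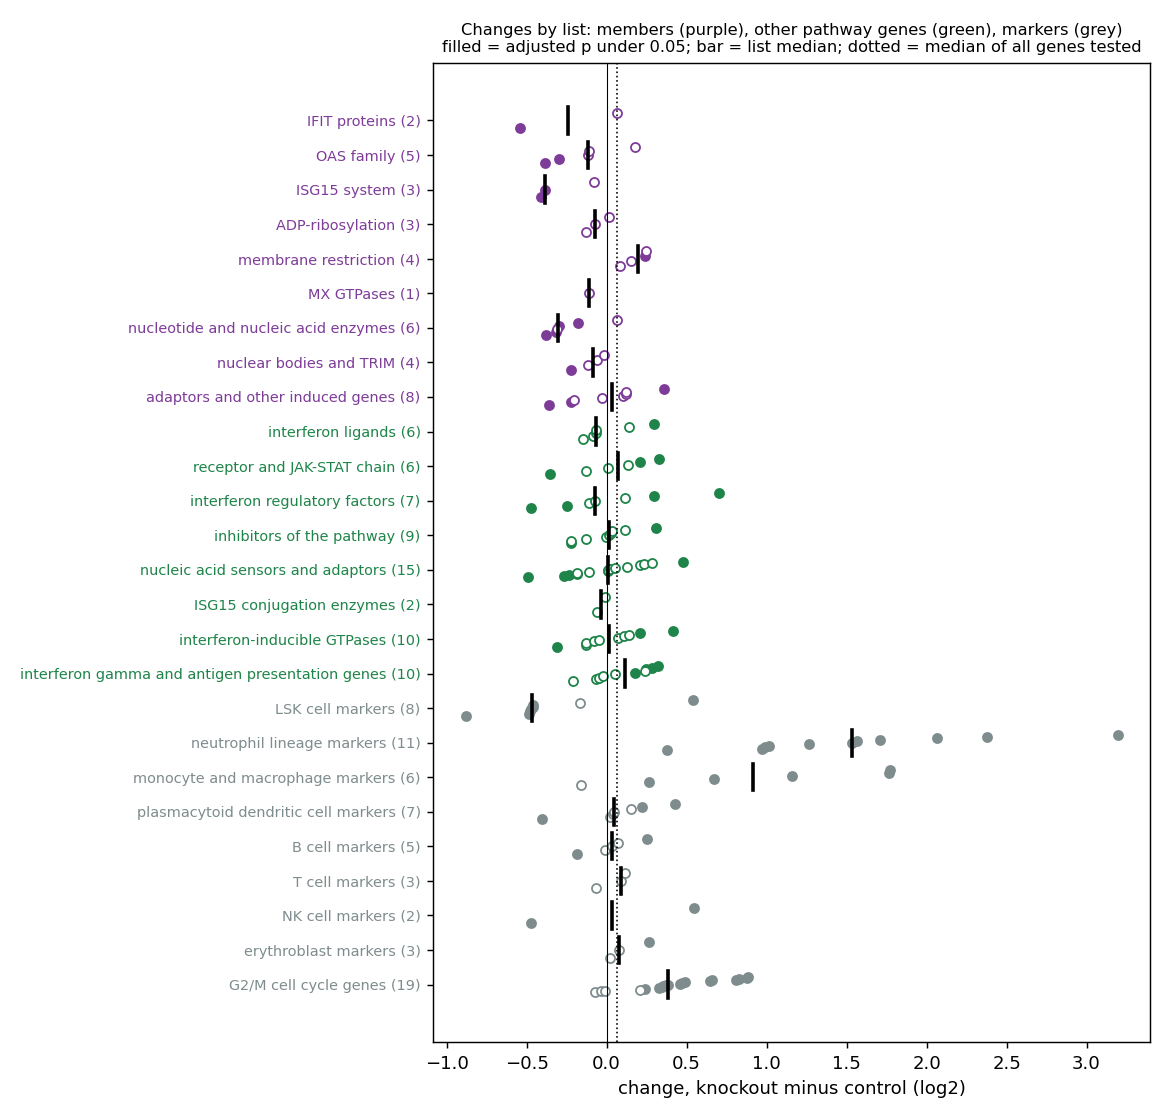
Change between knockout and control (horizontal axis, log2) of each gene tested, by list (rows, number tested in brackets), for members (purple), other pathway genes (green) and marker genes (grey); filled points passed, black bars are list medians and the dotted line is the median of all genes tested, 0.07. The ISG15 system and the nucleotide and nucleic acid enzymes lie to the left (medians -0.39 and -0.30), and the neutrophil lineage markers far to the right (median 1.53).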

How the data were processed

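RNA of LSK cells from 3 knockout and 3 control samples was labelled from 250 ng of total RNA, per the labels' protocols. The authors deposited 1 table of log2 values, a column per array, and RMA is named in the submitters' processing notes; the log base (read as 2 from the range), the software version and the genome build are not given in the sources used here. RMA as a method gives all arrays the same intensity distribution, so a shift common to most transcripts cannot be seen. Array medians were 1.89 to 1.95, and the number of arrays limits the precision.

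Probe sets were named through the platform annotation and a RefSeq table (GRCm38.p6). Of 65956 probe sets, 31080 named 1 gene, 1670 several and 33206 were not listed. The brightest probe set stood for each of 357 genes with several. Genes with a mean under 1.92 (11617) were left out and 19010 tested with limma 3.58.1 in R 4.3.3 (lmFit, eBayes, two-sided). The same fit was also run on simulated data, in which a far smaller share of genes was changed than passed here. Changes are knockout minus control; calls use an adjusted p under 0.05 (Benjamini-Hochberg, all genes). The rule named every member, with values on each array for those that passed and for 7 chosen genes, and up to 4 genes by p from each other list. Members and lists were chosen with earlier results of these data known. Alternatives covered the filter, scaling, probe sets, variance model, array weights, replicate block and each array left out.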

Additional observations from a re-analysis of the deposited data

How the results depend on the processing

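Across all settings run, the 14 members that passed kept the sign of their change, and 8 kept their call in each setting that tested them: Oas2, Usp18, Herc6, Rsad2, Helz2 and Epsti1 as lower and Xaf1 and Ifitm1 as higher. With 1 array left out at a time, 8 to 9 members fell and 2 to 3 rose, 0 to 1 passed with a fold of at least 1.5, 8 to 13 other pathway genes rose and 5 to 7 fell, and 2322 to 3093 of all genes were higher. With arrays centred on the median of the genes kept, an alternative added after the data had been seen, 8 pathway genes rose. The cause of these shifts was not tested. The replicate numbers were shared between groups, but deviations from the group means correlated at 0.17, 0.20 and 0.07 for the same-numbered arrays, 1 of them under 0.1, so the numbers were not taken as pairs, although each array correlated best with its own number. With the replicate block 4 members rose, among them Oas1a (adjusted p = 0.0392) and Bst2 (0.0491), and 14 fell, among them Samd9l (0.0350) and Nmi (0.0299). Members with small changes, such as Isg20 and Rnf213, lie at the limit of what 3 arrays per group can call.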

Other observations

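Further interferon-induced genes outside the list above, most of them relatives of its members, were read from the same fit. They were picked after the results on the members were known. Of 56 tested, 18 fell and 13 rose (median -0.05), against 12.0% lower and 19.1% higher among all genes. Of 11 further genes of the TRIM family tested, 7 fell and 0 rose (median -0.33). Trim21 (0.17), Trim14 (0.07), Trim30b (0.03) and Trim56 (-0.05) did not pass. Trim21 passed as higher after a second quantile normalization (0.20, limma adjusted p = 0.0428). Trim25, the ubiquitin ligase that activates the RNA sensor of Rigi, fell from 7.18 to 5.95 (change -1.23 ± 0.06, SE, limma adjusted p = 3.76e-06), more than any member. Trim30d (-0.50), Trim5 (-0.39), Trim12c (-0.36), Trim30c (-0.33), Trim12a (-0.33) and Trim26 (-0.28) were the others that fell. Several of these and Trim30a are close copies of each other, so their probe sets may not be independent.

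Schlafen genes, which restrain growth or translation in blood cells, went both ways, with Slfn8 (-0.84 ± 0.08, SE, limma adjusted p = 0.000127), Slfn5 (-0.42) and Slfn10-ps (-0.42) lower and Slfn2 (0.46) and Slfn3 (0.38) higher. Among DNA-binding PYHIN genes, the inflammasome sensor Aim2 (-0.37) and Mndal (-0.38) fell and Ifi209 rose by 0.51. Of 5 relatives of Oas1a, Oas1g (0.21) and Oas1c (0.23) passed as higher, and the changes of the other 3 did not pass, that of Oas1e below 0 (-0.05). Zc3hav1, the zinc finger antiviral protein, fell by 0.36, and Parp12 fell by 0.23 while Parp11 rose by 0.22. Among the IFITM relatives Ifitm7 rose by 0.28 and Ifitm5, known from bone-forming cells, fell by 0.53. Among the relatives of the IFIT genes and Ifi27, 1 of 2 tested rose, Ifi27l2a (0.41). Of the 19 other interferon-induced genes 5 rose and 3 fell (median 0.01), where 19.1% of all genes tested rose and 12.0% fell. Tent5a (0.88, more than the rise of any member), Ms4a4c (0.52), Lgals9 (0.35), Tor3a (0.30) and Apobec3 (0.28) rose. Shisa5 (-0.50), Gvin1 (-0.29) and Samhd1 (-0.21) fell. Of the 31 calls among these relatives 7 were lost in at least 1 other setting, those of Gvin1, Ifitm7, Oas1c, Oas1g, Parp11, Parp12 and Samhd1 (adjusted p up to 0.161). A second probe set, annotated to Sp110 and another gene and not used above, was at -0.07 (adjusted p = 0.463 in a fit of all probe sets above the median), beside -0.06 for the probe set of Sp110 alone.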
